A study of Mus musculus with 27 samples.

Results

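The *Hox* genes encode homeodomain transcription factors that give cells along the head-to-tail axis their positional identity. In the mouse they lie in 4 clusters, HoxA, HoxB, HoxC and HoxD, in which the order of the genes along the chromosome follows the order in which they are switched on in time and the level of the body axis at which they act. Genes at the same place in different clusters, with closely related proteins, form a paralogue group with the same number. Anterior members act in the hindbrain, the pharyngeal arches and the precursors of the outflow tract, whereas posterior members act in the trunk, the limbs and the genital region. Methylation of lysine 4 of histone H3 (H3K4) marks regulatory DNA: H3K4me1 is found mainly at enhancers, H3K4me2 at enhancers and promoters, and H3K4me3 at promoters. In tissues that do not use them, *Hox* promoters are held by Polycomb proteins and often carry H3K4 methylation together with the Polycomb mark.

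The members described here are 38 *Hox* genes of the 22225 protein-coding genes in the GENCODE vM1 annotation of the mouse assembly mm9 (NCBIM37), 10 in HoxA, 10 in HoxB, 9 in HoxC and 9 in HoxD. Each was assigned the H3K4-methylated regions that overlapped its body, or lay within 5 kb of one of its annotated transcription start sites (TSS), by at least 1 bp. The body and these 5 kb flanks are called the window of a gene. The rule gave 115 distinct regions of the 358833 that the authors called for H3K4me1, H3K4me2 or H3K4me3 and merged into 1 list. The windows of neighbouring members overlap, and several regions counted for more than 1 gene.

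The study asked where H3K4 methylation is lost when KMT2D, a methyltransferase for this residue, is removed from heart muscle. Chromatin immunoprecipitation and sequencing (ChIP-Seq) was carried out on C57BL/6 embryonic hearts at E11.5. Control hearts were *Tnnt2::Cre; Kmt2d fl/+; mTmG/+* and mutant hearts were *Tnnt2::Cre; Kmt2d fl/fl; mTmG/+*, so that both genotypes carried the Cre transgene, the Rosa26 reporter of Cre activity mTmG and at least 1 floxed allele of *Kmt2d*, and the control was heterozygous for the deletion and not wild type. Each genotype had 3 pools of 30 hearts, and from every pool came an input sample and 3 immunoprecipitations, for H3K4me1, H3K4me2 and H3K4me3, which makes 24 of the 27 libraries of the series. The other 3 were KMT2D ChIP-Exo libraries of cardiomyocytes differentiated from embryonic stem cells and were not analysed here. Cre is driven by the *Tnnt2* promoter, which is active in cardiomyocytes, and whole hearts were used, so the deletion was not aimed at endocardial, epicardial and cushion cells.

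The values are coordinates only. The merged list and the lists of regions with decreased H3K4me1 and decreased H3K4me2 in mutant hearts hold no read count, score or value per library, so read depth is unknown, no difference could be set against the spread between pools and no test was run. Which regions were decreased was decided by the authors, and loss of a mark may have gone uncalled at regions outside both lists. In whole hearts, a region that is marked in few cells and a region that is weakly marked in many cannot be told apart. As a check of the tissue label, the TSS of 5 of 5 heart genes (*Nkx2-5*, *Tnnt2*, *Myh6*, *Myl7* and *Actc1*) lay in merged regions 12960 to 22900 bp wide. Of 4 genes of other tissues, *Alb* (liver) had no TSS in a region, and *Neurod1* (neurons), *Myod1* (skeletal muscle) and *Pax6* (eye and brain) had regions of 580, 2320 and 5580 bp. Decreased H3K4me2 was found over a TSS of *Nkx2-5*, *Actc1* and *Pax6*, and at none of the other genes of these lists.

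No *Hox* gene held a region with decreased H3K4me2 or decreased H3K4me1. Among the 115 regions at the members, 0 were in the H3K4me2 list, which held 1.87% of all merged regions, and 0 were in the H3K4me1 list, which held 0.761%. Counted by gene, 0 of 38 members had a region with decreased H3K4me2, against 25.7% of all protein-coding genes under the same rule, and 0 of 38 had a region with decreased H3K4me1, against 6.36%. Each of the 4 clusters and 13 paralogue groups had a count of 0, so anterior and posterior members both stood at 0. With 11 anterior and 16 posterior members, and as few as 2 genes in a paralogue group, these counts cannot show whether the parts were alike. Among the 33 members whose TSS was marked by a merged region, none (0) had its TSS in a region with decreased H3K4me2, against 29.2% of the 15680 protein-coding genes with such a TSS, and 0 inside one with decreased H3K4me1, against 1.29%. The count of 0 also held for all 130 merged regions that touched the spans of the clusters, counted from the outer end of the first member to that of the last.

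How much these counts of 0 can show depends on their number. A count of 0 of 115 regions allows a share of up to 2.61%, which is above the share of all merged regions in either list, so the region counts could not separate the *Hox* genes from the rest of the genome. A count of 0 of 38 genes allows up to 7.89%, and 0 of 33 genes allows up to 9.09%. These limits, set at 3 counts, lie below the genome-wide H3K4me2 shares of 25.7% and 29.2% and above the H3K4me1 shares of 6.36% and 1.29%. They cover counting error only and treat members as independent, which neighbours that share regions are not. The comparisons by gene are also not matched for width. The widest TSS region was 1000 to 1999 bp in 12 members, where 10% of other coding genes had a TSS in a decreased H3K4me2 region. It was 2000 to 3999 bp in another 12, where the share was 27.2%. In either class, 0 of 12 allows up to 25%.

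H3K4-methylated regions were common at the *Hox* genes. The TSS of 33 of 38 members (86.8%) lay inside a merged region, against 70.6% of protein-coding genes. Regions at members had a median width of 980 bp (range 60 to 14960 bp), against 320 bp for all merged regions, and 49.6% of them were at least 1000 bp wide, against 23.1%. Narrow regions of under 200 bp made up 24.3% of the member regions and 42.4% of all. A TSS of some gene lay inside 48 of the 115 regions (41.7%, against 5.46% of all merged regions). Of the remaining regions, 24 overlapped an exon, 28 lay in introns and 15 were intergenic. The full list is not limited to genes, whereas the rule takes only regions in gene bodies or near a TSS. The contrasts of width and TSS content with all merged regions are therefore partly set by the rule. Merged regions covered a median of 35.2% of the window of a member (range 11% to 87.8%), against 18.8% for protein-coding genes, and 31 of 38 members were above that genome-wide median.

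The regions over *Hox* TSS were narrow for promoters. The widest region over a TSS of each member had a median of 2140 bp (range 600 to 14960 bp, n = 33), against 3710 bp for protein-coding genes, and 7 of the 33 were wider than the genome-wide median. Wide promoter regions were more often in the decreased H3K4me2 list. Among other merged regions with a TSS inside, the share with decreased H3K4me2 rose from 0.626% of those of 60 to 499 bp and 1.21% at 500 to 999 bp to 7.42% at 1000 to 1999 bp, 22.4% at 2000 to 3999 bp, 31.1% at 4000 to 7999 bp and 38.5% at 8000 bp or more. The corresponding numbers of *Hox* regions were 1, 6, 22, 14, 4 and 1, each with 0 in the list. A TSS of any gene counted here, so some of these *Hox* regions held no TSS of a member, such as a region of 4860 bp at *Hoxa2*. In the class of 1000 to 1999 bp, which held the most *Hox* regions, 0 of 22 allows up to 13.6%, above the share of the other regions. In the class of 2000 to 3999 bp, 0 of 14 allows up to 21.4%, just below it. Over all widths of at least 1000 bp, 0 of 41 such *Hox* regions were decreased for H3K4me2, which allows up to 7.32%. Among other regions with a TSS inside the count was 4094 of 17101 (23.9%). For H3K4me1 the same counts were 0 of 41 and 246 of 17101 (1.44%). These pooled comparisons are not matched for width. Of the 41 *Hox* regions, 22 were in the class of 1000 to 1999 bp, where 7.42% of the other regions had decreased H3K4me2.

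**Figure D1:**
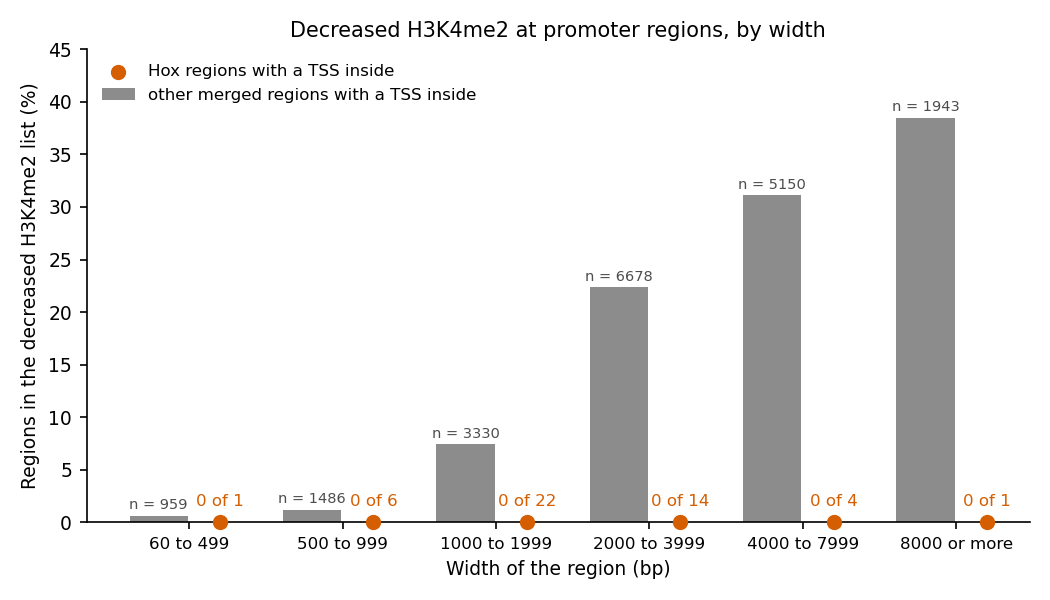
Share of merged regions with a TSS inside that were in the decreased H3K4me2 list (vertical axis, percent), by width of the region in bp (horizontal axis). Grey bars are regions away from the *Hox* genes, with their number above, and orange points are regions at *Hox* genes, with their count: the bars rise from 0.626% to 38.5% and the *Hox* points stay at 0 in every class, with 22 and 14 regions in the best filled classes.

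The *Hox* regions were also rich in CpG. CpG-rich promoters are those at which H3K4 methylation is most regular, and the ratio of observed to expected CpG measures how rich in CpG a stretch is. Regions at members had a median GC content of 55% and a CpG ratio of 0.554, against 45.4% and 0.194 for the other merged regions. The other regions were not limited to genes, so this contrast too is partly set by the rule. Among regions of at least 1000 bp with a TSS of any gene inside, the 41 at *Hox* genes had a median CpG ratio of 0.629 (quartiles 0.531 and 0.687). The median of the 17101 others was 0.431. The share of decreased regions differed between classes of CpG ratio. Of other promoter regions of this width, 12.8% were decreased for H3K4me2 where the CpG ratio was under 0.4, 32.2% where it was 0.4 to 0.6, 34.1% where it was 0.6 to 0.8 and 24.7% where it was 0.8 or more. The *Hox* regions in these classes numbered 2, 15, 20 and 4. The counts of 0 of 15 and 0 of 20 allow up to 20% and 15%, below the shares of the other regions in the same class. These classes hold all widths of at least 1000 bp and are not matched for width. A relation of CpG content to the *Hox* counts was not tested.

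The 4 clusters differed in how much of their length was marked. Merged regions covered 46.1% of the HoxA span of 98525 bp, 33.5% of the HoxD span of 96834 bp, 30.7% of the HoxB span of 173941 bp and 23.1% of the HoxC span of 115741 bp. Over the 485041 bp of the 4 spans the share was 32.6%. The mean covered share of a gene's window was 50.5% ± 9.46 (SD over genes, n = 10) in HoxA, 42.6% ± 22.3 (n = 10) in HoxB, 30.6% ± 6.39 (n = 9) in HoxD and 23.5% ± 14.2 (n = 9) in HoxC. The members were most alike in HoxD and differed most in HoxB, and the lowest HoxA gene (35%) was above the mean of HoxC. These SD describe the spread between neighbouring genes and are no replicate error.

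**Figure D2:**
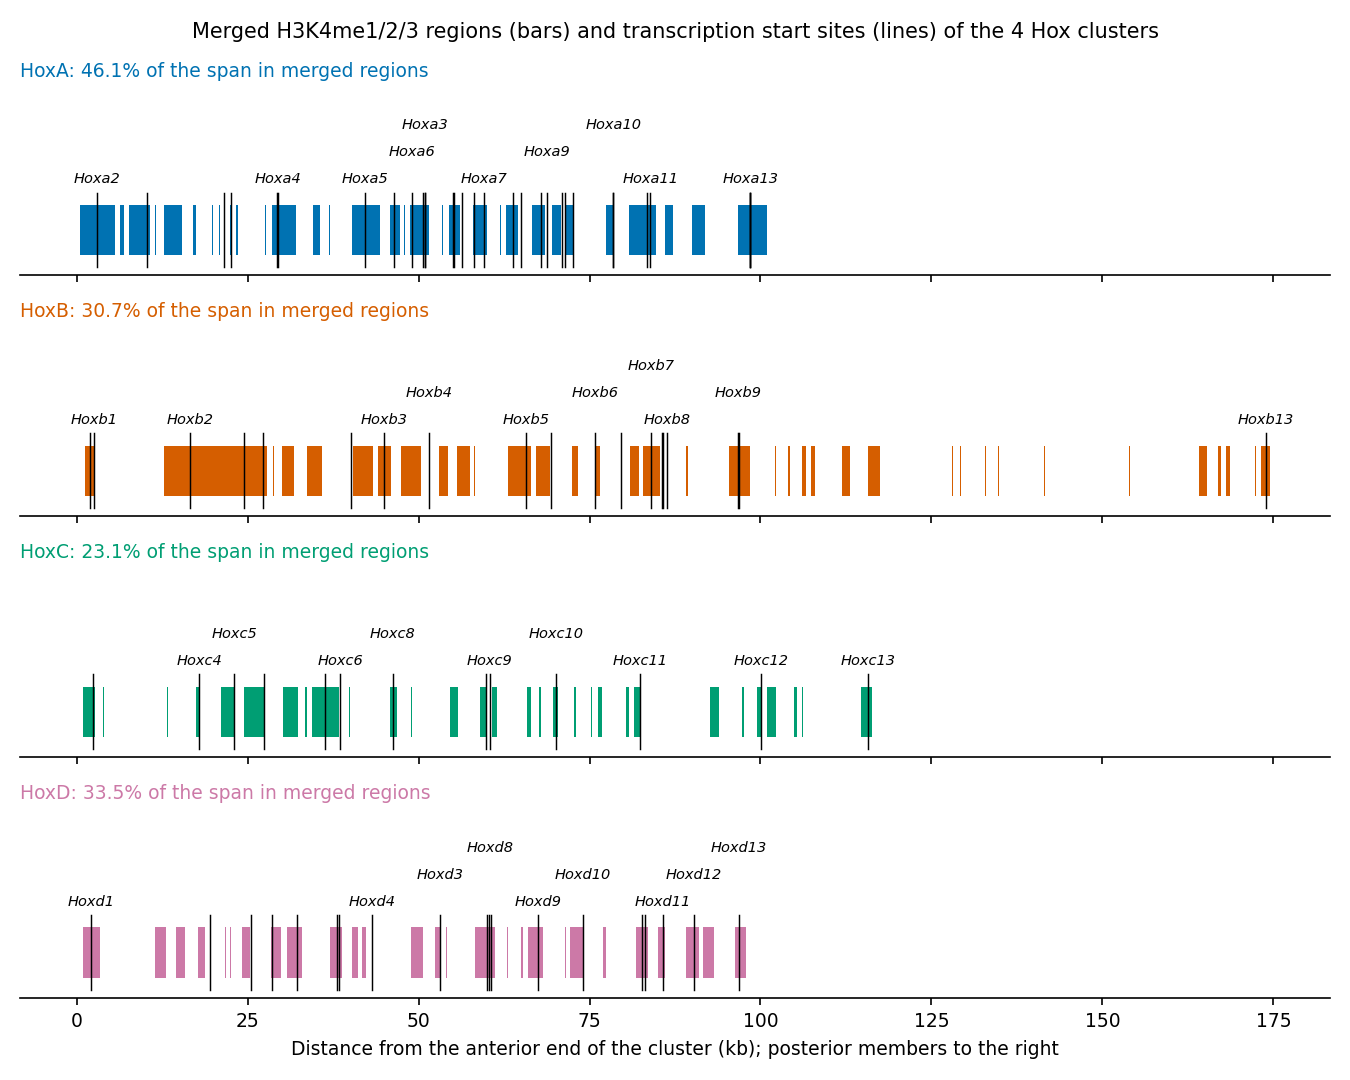
Maps of the 4 *Hox* clusters, each from the outer end of its most anterior member described here (0 kb, left) to that of its most posterior member (horizontal axis, kb), with merged H3K4me1/2/3 regions as bars and annotated TSS of the members as black lines. HoxA is marked along its whole length (46.1% covered), the widest bar is the 14960 bp region at *Hoxb2* and *Hoxb3*, and bars are thin and sparse toward the posterior end of HoxB and HoxC.

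In HoxA, on chromosome 6 from 52112350 to 52210874, all 10 members had a TSS inside a merged region. *Hoxa2*, which patterns the second pharyngeal arch, was the most anterior member described and had the highest covered share of the cluster, 70.6% of its window in 4 regions, with a region of 5120 bp over its TSS. *Hoxa4* had the lowest share, 35% in 2 regions, 1 of them a region of 3460 bp over its TSS. *Hoxa3*, needed for the thymus, the parathyroid and the carotid artery, is annotated as 2 overlapping genes and here joined. Its body of 52113358 to 52163338 runs across *Hoxa4*, *Hoxa5* and *Hoxa6*, so its 20 regions included those of its neighbours. The central genes *Hoxa5*, *Hoxa6* and *Hoxa7* had 54.4%, 58.8% and 48.8% of their windows covered. The posterior genes *Hoxa9*, *Hoxa10*, *Hoxa11* and *Hoxa13*, which act in the limb and the urogenital tract, had 49.5%, 47.3%, 49.4% and 42.9%. *Hoxa13*, the most posterior member and a gene of the digits and the genital tubercle, had a TSS region of 4180 bp, wider than the genome-wide median of 3710 bp.

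In HoxB, on chromosome 11 from 96055630 to 96229570, the marked length was concentrated at *Hoxb2* and *Hoxb3*. A single region of 14960 bp at chr11:96201766-96216725 held the TSS of *Hoxb2* and some of the 4 annotated TSS of *Hoxb3*. Both are genes of the hindbrain and the pharyngeal arches, and the region was the widest at any member. It covered 87.8% of the window of *Hoxb2*, higher than in 99% of protein-coding genes, and 97% of protein-coding genes with a marked TSS had a narrower TSS region. The next gene in the anterior direction, *Hoxb1*, a gene of the hindbrain and of early heart progenitors, had 14.7% of its window covered in regions of 1440 and 100 bp. *Hoxb4* and *Hoxb5* had 51.7% and 54.2%, and *Hoxb6*, *Hoxb7*, *Hoxb8* and *Hoxb9* lay between 31.1% and 38.4%. *Hoxb13*, far from the other members at the posterior end, had 17.2% in 4 regions of 60 to 1320 bp. The *Hoxb2* and *Hoxb3* region is of the width at which 38.5% of other promoter regions were decreased for H3K4me2, and it was in neither list.

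In HoxC, on chromosome 15 from 102751534 to 102867274, 6 regions or fewer were found at each member and the covered share fell into 2 levels. *Hoxc5* and *Hoxc6*, central genes of the cervical and thoracic region, had 47.8% and 47.3% of their windows covered and *Hoxc6* had the widest region of the cluster, 3960 bp. The other 7 members had 11% to 22.6%. *Hoxc8*, a gene of the thoracic skeleton and brachial motor neurons, had the lowest share of all members, 11%, from regions of 980 and 120 bp. *Hoxc13*, the posterior end of the cluster and a gene of hair and nails, had 12% from 1 region of 1520 bp over its TSS. *Hoxc4*, the anterior end, had 17.6% in 6 regions across a body of 102849367 to 102867274. *Hoxc9*, *Hoxc10*, *Hoxc11* and *Hoxc12* had 21.1%, 17.6%, 14.2% and 22.6%, and their TSS regions, where they had one, were 600 to 920 bp wide.

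In HoxD, on chromosome 2 from 74506367 to 74603200, *Hoxd12* had the highest covered share, 42.6%, with a TSS region of 1840 bp, and *Hoxd4* the lowest, 21.6%, with a TSS region of 1780 bp. *Hoxd1*, the anterior end and a gene of sensory neurons, had 24.8% from a single region of 2480 bp. *Hoxd13*, the posterior end and a gene of the digits and genitalia, had 35.4% in 4 regions, with 1600 bp over its TSS. *Hoxd3* had 31% in 15 regions over a long body that contains *Hoxd4*, and *Hoxd8*, *Hoxd9*, *Hoxd10* and *Hoxd11* had 32.5%, 30.3%, 24.6% and 32.9%.

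Anterior members had a higher mean covered share than posterior members, but the order was carried by HoxB and not by every cluster. The mean was 42.5% ± 24 (SD over genes, n = 11) for paralogue groups 1 to 4, 41.8% ± 13.8 (n = 11) for central groups 5 to 8 and 30.7% ± 12.8 (n = 16) for posterior groups 9 to 13, a difference of 11.8 percentage points between anterior and posterior members that is smaller than the SD among the anterior genes. Leaving out HoxB brought it to 3.99 points, and leaving out HoxD raised it to 19.2. Within clusters, anterior and posterior means were 51.4% and 47.3% in HoxA, 54.6% and 24.2% in HoxB, 17.6% (1 gene) and 17.5% in HoxC, and 25.8% and 33.2% in HoxD, where the order was the opposite. Posterior genes were therefore covered very differently by cluster, from 17.5% in HoxC to 47.3% in HoxA. Among the paralogue groups, group 2 (*Hoxa2* and *Hoxb2*) had the highest mean, 79.2%, and its neighbour group 1 (*Hoxb1* and *Hoxd1*) the lowest, 19.7%. The median width of the TSS region was 2760 bp in anterior, 2720 bp in central and 1640 bp in posterior members.

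**Figure D3:**
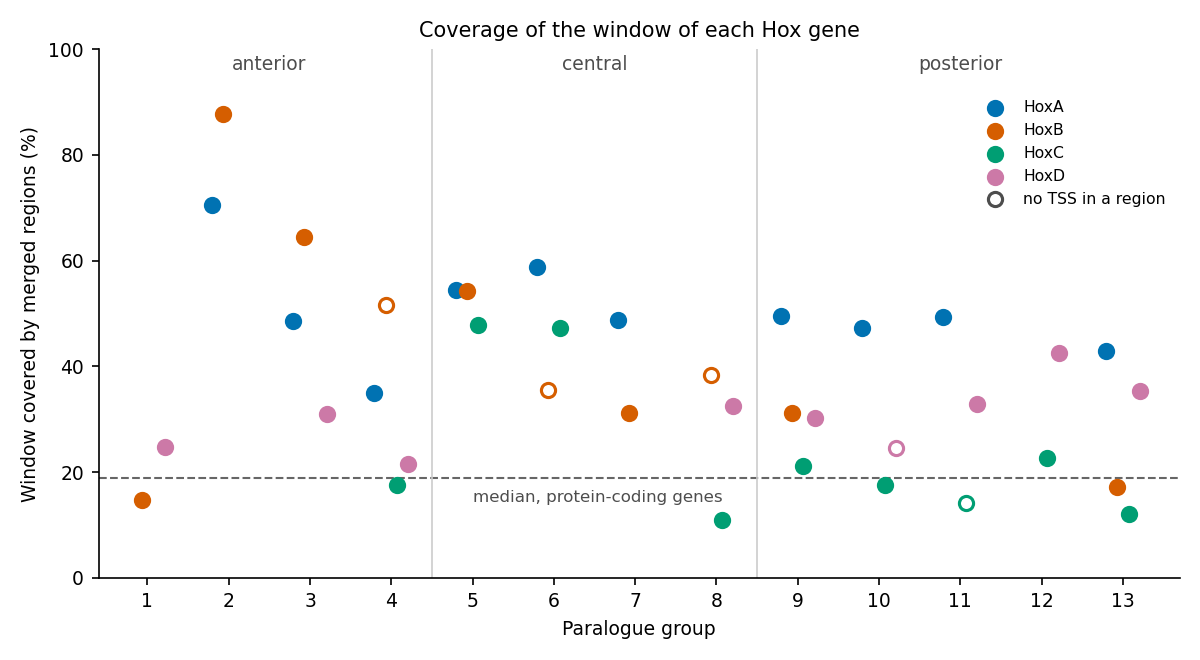
Percent of the window of each of the 38 *Hox* genes that lay in merged H3K4me1/2/3 regions (vertical axis), by paralogue group (horizontal axis) and cluster (colour), with the median of protein-coding genes as a dashed line and open circles for genes with no TSS in a region. HoxA points stay at 35% or above, HoxC points lie near or below the line apart from *Hoxc5* and *Hoxc6*, and *Hoxb2* is the highest at 87.8%.

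The shape of the marked stretch around the TSS also differed along the clusters. At the TSS itself 77.1% of *Hox* starts were covered, averaged by gene, against 60% for protein-coding genes. Posterior members peaked just inside the gene, with 94.1% covered at 200 bp downstream, and fell to 53.6% at 1000 bp and 16.9% at 2000 bp. At 2000 bp downstream, anterior members had 38.6%, central members 47.3% and protein-coding genes 35.8%. Upstream, anterior members were above the average gene at every distance to 5 kb, with 43.9% against 24.4% at 2000 bp before the TSS. Central members had 41.2% at 2000 bp but were below the average gene from 1400 to 700 bp, with 26.1% against 39.5% at 1000 bp. Posterior members had 25.5% at 2000 bp and were below the average gene from 1400 to 600 bp, with 29.1% against 41.9% at 900 bp. They were also below it at some distances further upstream, with 9.27% against 17.8% at 4500 bp. Within such compact clusters the flank of 1 gene is often the promoter of the next.

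**Figure D4:**
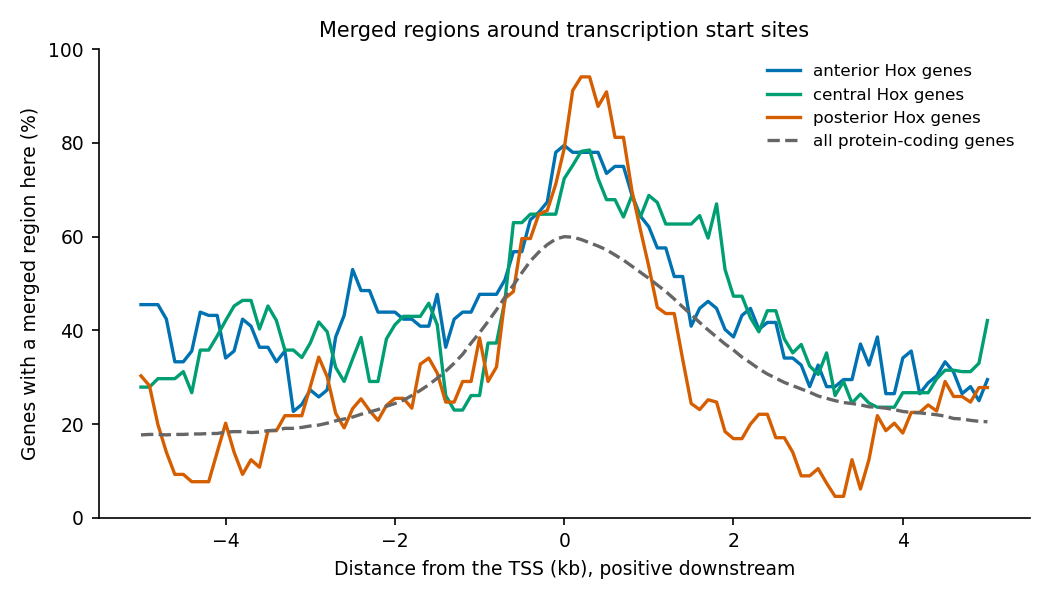
Percent of genes with a merged region at each distance from the TSS (vertical axis), from 5 kb upstream to 5 kb downstream (horizontal axis), averaged over the TSS of a gene and then over genes, for anterior, central and posterior *Hox* genes (coloured lines) and all protein-coding genes (dashed). The posterior line reaches 94.1% at 200 bp downstream and drops to 16.9% at 2000 bp, below the dashed line at 35.8%, while the anterior and central lines are above it at that distance.

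The exceptions to a marked TSS were 5 members, *Hoxb4*, *Hoxb6*, *Hoxb8*, *Hoxc11* and *Hoxd10*, and in each a region began close by. *Hoxc11* and *Hoxd10*, genes of the lumbar and sacral level, missed it by 8 and 19 bp, with regions of 880 and 1860 bp starting just downstream. The bases from the TSS to the last base before the region, read on the plus strand, are shown because the call of a missing region rests on them.
*Hoxc11*, chr15:102784858-102784865: gactaaga
*Hoxd10*, chr2:74529147-74529165: cgaatagggaacggctggc

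*Hoxb6* missed by 65 bp, with a region of 620 bp upstream. *Hoxb8*, known from blood cell precursors, missed by 227 bp, with a region of 2420 bp downstream that held a TSS of *Hoxb7*. *Hoxb4*, which promotes the growth of blood stem cells, missed by 1168 bp, with a region of 2960 bp downstream, although it had 51.7% of its window covered. The distances depend on the annotated TSS. RefSeq (GRCm38.p6) promoters, 250 bases before and 50 after a start, were given for 22 members, and all 24 of these sequences were found once in NCBIM37. In 20 of the 24 the RefSeq start lay in a merged region, and those of *Hoxb4* and *Hoxd10* were among them, inside the same regions of 2960 and 1860 bp. The 4 RefSeq starts outside a region were those of *Hoxa7* (127 bp away), *Hoxa9* (504 bp), *Hoxd4* (791 bp) and *Hoxb8* (1047 bp), and of these *Hoxb8* alone had no other annotated TSS in a region.

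Promoter sequences were searched on both strands for motifs of factors known to act on *Hox* genes: Pbx-Hox (TGATNNAT), Meis (TGACAG), Cdx (TTTATG), the CTCF core (AGGNGGC) and the retinoic acid response element DR5. Matches of different motifs may share bases, and a match is a match of letters only. Of the 24 *Hox* promoters, 4 held a Pbx-Hox motif (16.7%, against 8.85% of all 32851 RefSeq promoters), 2 a Meis motif (8.33%, against 19.2%), 5 a Cdx motif (20.8%, against 11.9%) and 7 a CTCF core (29.2%, against 29.4%). None of the 24 held the DR5 element, found in 0.0974% of all promoters. The CTCF core was in the promoters of *Hoxa10*, *Hoxa11*, *Hoxa13*, *Hoxb4*, *Hoxd9*, *Hoxd10* and *Hoxd13*, and the Pbx-Hox motif in those of *Hoxa2*, *Hoxb1*, *Hoxb8* and *Hoxd11*. *Hox* promoters were CpG-rich, with a median of 14.5 CpG in 300 bases against 7 in all promoters.

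The 250 bases before the RefSeq start are shown for 4 members. Among them are *Hoxb8*, whose start no region covered, and *Hoxb1*, whose window was sparsely covered and whose start lay in a region of 1440 bp. The others are *Hoxa13* and *Hoxd13*, the posterior ends of HoxA and HoxD, whose starts lay in regions of 4180 and 1600 bp. Coordinates are those of the same sequence in NCBIM37, sequences are in the direction of transcription, and capitals mark matches to the motifs on either strand. *Hoxa13* and *Hoxd13* had 45 and 37 CpG in their 300 bases and CTCF core matches, and *Hoxb1* and *Hoxb8* had 10 and 13 CpG. The 4 do not span the range of CpG. The promoter of *Hoxd8*, with 6 CpG, and both promoters of *Hoxd11*, with 4 and 25 CpG, lay whole in a region. Those of *Hoxa9* and *Hoxd4*, with 4 CpG each, lay outside. *Hoxb1* carried a Pbx-Hox match, and *Hoxb8* carried a Cdx match on each strand and a Pbx-Hox match.
*Hoxb8*, chr11:96142969-96143218, plus strand: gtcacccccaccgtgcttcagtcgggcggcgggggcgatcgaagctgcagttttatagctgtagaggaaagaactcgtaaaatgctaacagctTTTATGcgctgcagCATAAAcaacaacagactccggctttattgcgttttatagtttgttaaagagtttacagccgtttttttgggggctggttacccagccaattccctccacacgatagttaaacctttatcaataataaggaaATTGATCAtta
*Hoxb1*, chr11:96226822-96227071, plus strand: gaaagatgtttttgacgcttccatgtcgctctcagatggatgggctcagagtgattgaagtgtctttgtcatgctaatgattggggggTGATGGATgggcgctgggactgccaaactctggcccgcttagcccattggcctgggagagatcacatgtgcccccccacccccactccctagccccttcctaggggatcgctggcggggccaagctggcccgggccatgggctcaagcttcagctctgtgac
*Hoxa13*, chr6:52210875-52211124, minus strand: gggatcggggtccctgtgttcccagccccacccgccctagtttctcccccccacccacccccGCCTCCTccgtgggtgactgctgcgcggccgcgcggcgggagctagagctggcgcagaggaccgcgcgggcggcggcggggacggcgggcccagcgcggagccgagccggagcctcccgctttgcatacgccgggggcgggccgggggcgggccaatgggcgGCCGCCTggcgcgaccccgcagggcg
*Hoxd13*, chr2:74506032-74506281, plus strand: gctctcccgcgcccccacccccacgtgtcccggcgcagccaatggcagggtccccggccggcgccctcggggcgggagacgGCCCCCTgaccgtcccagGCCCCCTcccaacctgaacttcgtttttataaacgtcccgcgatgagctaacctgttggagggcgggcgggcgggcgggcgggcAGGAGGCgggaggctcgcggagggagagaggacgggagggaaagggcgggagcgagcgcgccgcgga

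The smallest regions at members were those of 60 bp, the narrowest width in the merged list. The members held 11 of them, 3 exonic and 8 intronic, with a GC content of 31.7% to 65% and 0 to 4 CpG each, and none matched a motif. The long *Hoxa3* body held 4 and *Hoxd3* held 2. An intronic one of each cluster is shown, on the plus strand, to give the smallest marked stretches that the merged list admits. They lay 1569, 1536, 6521 and 2539 bp from the nearest TSS of a member, in that order.
*Hoxa3*, chr6:52132226-52132285: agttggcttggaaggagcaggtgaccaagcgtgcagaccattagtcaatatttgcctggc
*Hoxb13*, chr11:96057166-96057225: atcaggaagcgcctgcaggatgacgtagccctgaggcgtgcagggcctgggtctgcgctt
*Hoxc4*, chr15:102858246-102858305: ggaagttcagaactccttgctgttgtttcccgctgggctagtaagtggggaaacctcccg
*Hoxd9* and *Hoxd10*, chr2:74531686-74531745: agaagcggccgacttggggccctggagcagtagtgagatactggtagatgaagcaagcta

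The clusters also hold microRNA genes, small RNAs that repress messenger RNAs, many of them *Hox* messages, through a seed at bases 2 to 8. All 6 found in the annotation had 0 decreased regions by the same rule, like the protein-coding members. The *Mir196b* hairpin, within the annotated body of *Hoxa9* at chr6:52180080-52180164, lay whole within a region of 1980 bp, and the *Mir615* hairpin, in *Hoxc5* at chr15:102845341-102845432, lay whole within a region of 1880 bp. The other 4 lay outside: *Mir10b* 232 bp, *Mir10a* 578 bp, *Mir196a-1* 787 bp and *Mir196a-2* 1925 bp from the nearest region. So of the family that shares the miR-196 seed, the HoxA copy was inside a marked region and the HoxB and HoxC copies were not. Mature sequences from RefSeq (GRCm38.p6) are shown with the seed in capitals, which the members of a family share.
miR-196a-5p: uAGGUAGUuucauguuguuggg
miR-196b-5p: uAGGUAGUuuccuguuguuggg
miR-10a-5p: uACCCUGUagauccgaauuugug
miR-10b-5p: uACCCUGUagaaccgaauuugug
miR-615-3p: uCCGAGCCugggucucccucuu

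In the 500 kb on either side of the 4 clusters, 19 of 861 merged regions (2.21%) were in the H3K4me2 list and 7 (0.813%) in the H3K4me1 list, close to the 1.87% and 0.761% of all merged regions. The nearest were at HoxD. A region of 2200 bp over the TSS of *Mtx2*, a mitochondrial outer membrane gene, lay 60.1 kb beyond the anterior end at chr2:74663286-74665485, and a region of 2520 bp over the TSS of *Lnp*, a gene of the endoplasmic reticulum, lay 88.5 kb beyond the posterior end at chr2:74415386-74417905, both with decreased H3K4me2. At HoxB the nearest decreased H3K4me2 lay over *Snf8* (157 kb, 3500 bp wide) and *Cbx1* (420 kb, 6420 bp), and at HoxC an intergenic region of 140 bp (156 kb) and the TSS of *Cbx5* (177 kb, 3820 bp). At HoxA it was an 80 bp region in *Hibadh*, 357 kb away. The nearest decreased H3K4me1 was 97.3 kb from HoxC, 126 kb from HoxA, 263 kb from HoxB and 1648 kb from HoxD. Of 10 genes that flank the clusters, *Hibadh*, *Mtx2* and *Lnp* had decreased H3K4me2, a share near the 25.7% of all protein-coding genes, and the homeobox genes next to HoxA and HoxD, *Evx1* and *Evx2*, had none.

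**Figure D5:**
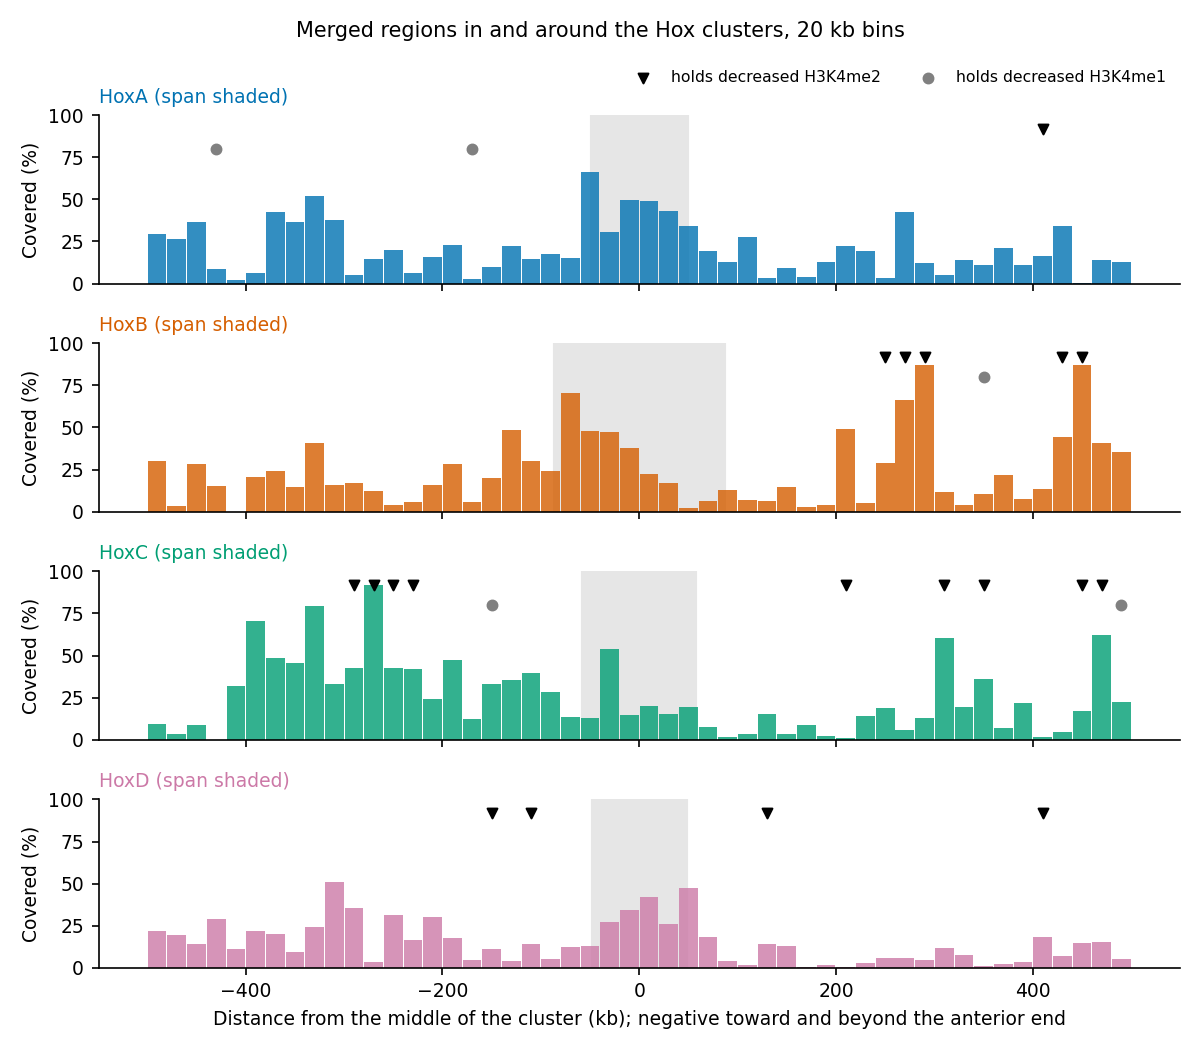
Percent of each 20 kb bin in merged regions (vertical axis) against distance from the middle of each cluster in kb (horizontal axis, negative toward the anterior end), with the span of the cluster shaded, triangles over bins that hold a region with decreased H3K4me2 and grey circles over bins that hold one with decreased H3K4me1. No mark falls within a shaded span, and the closest triangles, either side of HoxD, are *Mtx2* on the left and *Lnp* on the right.

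Some genes of the same pathway were in the decreased lists. The TALE homeodomain proteins bind DNA together with Hox proteins, and 4 of 8 of their genes (*Meis1*, *Meis2*, *Pbx2* and *Pbx3*) had decreased H3K4me2, each over a TSS. Their decreased TSS regions were 7000 to 25040 bp wide, the widest at *Meis2*, against the *Hox* median of 2140 bp. Decreased H3K4me1 was found at *Pbx3*, *Pbx4* and *Pknox1*. Of 15 genes that regulate *Hox* transcription, 7 had decreased H3K4me2, all over a TSS: the retinoic acid receptor gene *Rara*, the ligand gene *Gdf11*, the Polycomb genes *Bmi1*, *Ezh2*, *Suz12* and *Eed*, and *Ctcf*. *Rarb* had decreased H3K4me1. *Kmt2a*, listed as *Mll1*, encodes another H3K4 methyltransferase, the one best known for keeping *Hox* genes on, and had a TSS region of 18220 bp in neither list. The 3 *Cdx* genes, *Rarg*, *Cyp26a1* and *Aldh1a2* were in neither list. The share of all protein-coding genes was 25.7% for H3K4me2 and 6.36% for H3K4me1. Among genes outside the *Hox* clusters, the share with a TSS in a decreased H3K4me2 region rose with the width of the TSS region. It was 36.5% at 4000 to 7999 bp and 46.5% at 8000 bp or more. The counts of partners and regulators were not matched for width and were not tested.

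Other clustered homeobox genes fell on both sides. Of the 6 Iroquois genes, 3 had decreased H3K4me2 (*Irx3*, *Irx4* and *Irx5*, with TSS regions of 10660, 14600 and 17640 bp) and *Irx6* had decreased H3K4me1. Their median covered share was 79.4%. The 6 *Dlx* genes of the face, forebrain and limb, with a median covered share of 59.8% and TSS regions of 2880 to 9060 bp, had 0 in either list. The same held for the ParaHox genes *Gsx1*, *Gsx2* and *Pdx1*, with TSS regions of 4040, 2220 and 1740 bp. The *Hox* genes had the lower median, 35.2%. With 3 to 6 genes a list these counts were not tested.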

How the data were processed

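Hearts were profiled by ChIP-Seq in 24 libraries, grouped by sample title, with 3 libraries in each group. Per the submitters' processing notes, reads were handled with CASAVA 1.8.2, FastQC, Bowtie, Bowtie2 and SAMtools on mm9. The decreased lists were cut at a false discovery rate that the authors set. The peak caller and the test behind them are not given in the sources used here. The authors deposited 3 lists of region coordinates (chromosome, start and end), pooled over libraries, with no other value: 358833 merged regions, 6699 with decreased H3K4me2 and 2730 with decreased H3K4me1. The deposited H3K4me2 list is longer than the count in the study's text, for a reason not given there, and all shares here use the deposited list. Each decreased region was identical to a merged region. Depth per library is unknown, and the lists give no precision beyond counting.

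Starts were converted to 1-based coordinates. Regions were assigned to genes of GENCODE vM1 (NCBIM37) by an overlap of at least 1 bp with the body or 5 kb either side of a TSS, with Python 3.11.15 and numpy 2.4.6, and figures were drawn with matplotlib 3.10.9. The assignment was tested on simulated data. Genes of 1 name on 1 chromosome were joined. GC content and CpG ratios were computed from the NCBIM37 sequence, and *Hox* promoters from RefSeq (GRCm38.p6) were placed by exact match. Limits on counts of 0 used 3 counts. No test across libraries, regions or genes was run.

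Genes were named by rule: members without a TSS in a region, the widest region, the highest and lowest covered share and both ends of each cluster, with other members given by value. *Hotair*, *Hottip* and *Hotairm1* were not found under these names in the annotation. Promoters and narrow regions to print were chosen after their values were seen. Some items are not reported here, and the counts leave them out. The members and gene lists were chosen with earlier results of these data known. Alternatives were the distance to a TSS, a minimum width, the overlap rule, protein-coding TSS only, each cluster left out, and other boundaries of anterior and posterior.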

Additional observations from a re-analysis of the deposited data

How the results depend on the processing

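The counts and shares of *Hox* regions and genes with decreased H3K4me1 or H3K4me2 were 0 under all 62 of their alternatives. Only the 10 kb window, 5 of the 62, could have added regions. The others took a subset of regions already at 0, regrouped them, or used a 1 bp overlap that gives the same matches where lists are identical in coordinates, so they say nothing about stability. Of all 106 alternatives, 104 kept the direction and stayed within 1.5 times the count or within the spread between clusters or genes, and 2 moved. These were the number of merged regions at the members, which was 74 with a minimum width of 500 bp and 57 with 1000 bp, against 115, by construction, since narrow regions were removed. It ranged from 83 to 136 in the others. The number of members with a marked TSS was 33 under every distance by construction, since that count does not use the distance. It was 29 with a minimum width of 1000 bp. The covered share of the clusters ranged from 28.1% to 35.5%. The difference in covered share between anterior and posterior members stayed positive, from 3.99 points without HoxB to 19.2 points without HoxD. It was 18.9 points for groups 1 to 3 against 10 to 13. The spread within which this difference counted as kept was 17.5 points, wider than the reported 11.8 points. A fall to 0 would thus have counted as kept. The 104 alternatives also include the 62 at 0, so their number is no measure of stability. No paired analysis was possible because the lists carry no values per replicate. For the same reason no replicate could be left out, and a stricter threshold could not be set because the lists carry no scores. The unknown depth limits every statement on regions outside the decreased lists, where a smaller loss may have gone uncalled.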

Other observations

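Within the clusters, the widest stretch with no merged region was 12340 bp in HoxB, 10200 bp in HoxC, 7940 bp in HoxD and 4840 bp in HoxA, and the median gap between regions was 2200, 2310, 1660 and 1430 bp. In the 100 kb beyond the ends, coverage differed by side and cluster. It was 28.9% beyond the anterior end and 7.32% beyond the posterior end of HoxB, 30% and 6.83% at HoxC, 20.4% and 15.9% at HoxA, and 8.58% and 13.1% at HoxD. HoxC, the least covered cluster at 23.1%, was thus less covered than its own anterior flank, and the other 3 clusters were more covered than either flank.

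Among the RefSeq promoters of the members, *Hoxa13* had the highest GC content (81%) and *Hoxd4* the lowest (39.7%). In 16 of the 24 promoters all 300 bases lay in a merged region, and in 4 none did. *Hoxa10* had 2 promoters, both only partly covered, with 182 and 57 of the 300 bases in a region.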
